A study of Mus musculus with 11 samples.

Results

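The regions described here are 1567 distal chromatin sites that were chosen because they were most accessible in basal cells of mammary ducts. They were selected on measured values: a peak had to lie over 10 kb from every protein-coding transcription start site (TSS). Its mean in basal duct cells had to be 4 CPM or more (CPM is the count in a peak per 1000000 counts of its library) and at least 2.5 times the mean of each of the other 3 populations. Both basal duct libraries also had to exceed every basal terminal end bud (TEB) library. The sites made up 1567 of 153396 peaks, 1.47% of the 106497 distal peaks and 5.68% of the 27598 distal peaks with a basal duct mean of 4 CPM or more.

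The mouse mammary gland is a branched epithelium with an outer basal layer of contractile, matrix-contacting cells and an inner luminal layer. During puberty the ducts are extended by TEBs, the bulbous growing tips, whose outer basal layer is the cap cell layer. The trailing ducts hold the more mature basal cells. Distal accessible sites include enhancers, stretches of DNA at which transcription factors bind and act on genes that can lie far away. ATAC-seq measures how readily the Tn5 transposase inserts into such open DNA.

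All mice were 5 weeks old, carried the E-cadherin-GFP reporter and were of the C57BL/6 strain per the labels, with no further treatment or allele named. TEBs and ducts were micro-dissected, and lineage-negative cells were sorted on CD24 and CD29 into basal cells with a low and luminal cells with a high reporter level. There were 2 libraries of basal duct cells, since a further sample with few cells was discarded by the study and is not analysed here, and 3 of each other population. The replicates came from 3 independent mouse pools, and whether libraries with the same number share a pool is not given in the labels. These are bulk samples, so fewer cells of a type with an open site and less opening per cell cannot be told apart.

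Counts in peaks totalled 6816197 and 9986384 for the basal duct libraries and 1821942 to 2489582 for basal TEB. The luminal libraries held 4650216 to 5561051 (duct) and 2960093 to 3738324 (TEB). Basal duct was therefore the most deeply counted group and basal TEB the shallowest. The share of counts in peaks within 500 bp of a TSS was 40% and 42.7% in basal duct and 31.1% to 35.7% in basal TEB, and the share in peaks over 50% repeat-masked was 2.4% and 2.45% against 7.03% to 16.2%. Promoter peaks of 7 basal markers (Krt5, Krt14, Krt17, Trp63, Acta2, Myh11 and Oxtr) summed to 212 to 217 CPM in basal duct, 120 to 165 in basal TEB and 26.5 to 36.6 in the luminal libraries. Those of 8 luminal markers (Krt8, Krt18, Krt19, Epcam, Cldn3, Foxa1, Elf5 and Ehf) summed to 154 to 167, 92.2 to 109 and 289 to 362 CPM. The basal markers were thus highest in the basal libraries and the luminal markers in the luminal ones, and both sums were higher in basal duct than in basal TEB. The part of depth, TSS share or repeat share in the choice of the sites was not tested.

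Of the motifs searched, 3 are marked in the sequences that follow: those of TEAD factors (GGAATG), which act with the co-activators YAP and TAZ, of AP-1 (TGANTCA), the Fos and Jun dimer, and of RUNX factors (TGTGGTT). Sequences of 6 sites are shown so that these matches can be read in their context. They were taken from 16 candidates among the sites with the highest level, the largest ratio, or the highest level at the genes nearest to the most sites. The 6 shown hold 2 or more matches, and 6 of the 16 hold none. Each is the central 300 bp of its peak on the plus strand of GRCm38 (mm10), named by its nearest protein-coding gene and the distance to its TSS. Capitals mark matches to these 3 motifs on either strand, so a match on the minus strand appears as its reverse complement.
Enox1 104 kb (chr14:77485051-77485350): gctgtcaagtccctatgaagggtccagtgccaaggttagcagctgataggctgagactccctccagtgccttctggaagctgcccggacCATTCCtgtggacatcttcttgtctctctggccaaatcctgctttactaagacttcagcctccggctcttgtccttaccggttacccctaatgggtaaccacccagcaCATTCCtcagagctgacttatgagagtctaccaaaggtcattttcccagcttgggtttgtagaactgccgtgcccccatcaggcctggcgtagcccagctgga
Ackr3 54.5 kb (chr1:90258883-90259182): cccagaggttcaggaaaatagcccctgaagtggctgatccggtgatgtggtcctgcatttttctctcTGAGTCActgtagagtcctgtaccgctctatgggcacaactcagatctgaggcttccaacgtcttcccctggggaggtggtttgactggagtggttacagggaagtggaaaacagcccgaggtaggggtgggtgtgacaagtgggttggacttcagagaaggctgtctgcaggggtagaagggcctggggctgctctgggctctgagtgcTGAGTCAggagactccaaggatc
Lep 27.1 kb (chr6:29032299-29032598): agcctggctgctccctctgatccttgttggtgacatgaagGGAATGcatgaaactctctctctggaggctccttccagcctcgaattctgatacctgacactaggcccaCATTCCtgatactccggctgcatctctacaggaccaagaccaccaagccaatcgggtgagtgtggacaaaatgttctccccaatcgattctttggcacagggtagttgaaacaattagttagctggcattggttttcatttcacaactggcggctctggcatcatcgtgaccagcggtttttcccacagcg
Ttc32 189 kb (chr12:9219756-9220055): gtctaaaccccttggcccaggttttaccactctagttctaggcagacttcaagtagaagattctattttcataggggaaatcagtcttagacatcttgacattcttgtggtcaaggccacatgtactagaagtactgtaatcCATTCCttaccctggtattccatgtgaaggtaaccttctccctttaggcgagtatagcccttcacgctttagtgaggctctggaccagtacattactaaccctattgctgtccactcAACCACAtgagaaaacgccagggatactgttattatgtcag
Ksr1 33.1 kb (chr11:79112473-79112772): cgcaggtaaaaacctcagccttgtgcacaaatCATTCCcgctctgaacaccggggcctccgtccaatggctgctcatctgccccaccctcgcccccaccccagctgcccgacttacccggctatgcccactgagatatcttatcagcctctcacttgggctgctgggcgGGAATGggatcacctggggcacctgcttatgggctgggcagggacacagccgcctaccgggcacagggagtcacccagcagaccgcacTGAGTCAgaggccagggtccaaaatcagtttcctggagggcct
Pik3r1 site (chr13:101540660-101540959): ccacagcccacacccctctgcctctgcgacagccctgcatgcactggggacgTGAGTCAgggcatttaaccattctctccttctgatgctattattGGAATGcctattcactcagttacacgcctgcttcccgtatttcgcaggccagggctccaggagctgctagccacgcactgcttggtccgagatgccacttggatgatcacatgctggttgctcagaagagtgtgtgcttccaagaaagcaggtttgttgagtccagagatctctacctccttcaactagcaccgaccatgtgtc

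The Enox1 site carried a pair of TEAD matches and lay in an intron of Enox1, an electron transfer enzyme of the cell surface. The Ackr3 site, with a pair of AP-1 matches, lay between protein-coding genes, 54.5 kb from Ackr3, which encodes an atypical receptor that binds the chemokine CXCL12. The Lep site lay upstream of the leptin gene. The Ksr1 site, in an intron of the gene for a scaffold protein of the Ras and MAP kinase pathway, held matches to both TEAD and AP-1, and so did the site between genes near Pik3r1, which encodes the regulatory subunit of phosphoinositide 3-kinase.

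The levels that follow were used to choose the sites and are given as a description, with no test. The median over the 1567 sites was 9.54 CPM in basal duct and 2.8 in basal TEB. It was 1.47 CPM in luminal duct and 1.84 CPM in luminal TEB. Per library, the median was 9.51 and 9.54 CPM in basal duct and 2.74 to 2.94 CPM in basal TEB, while luminal duct libraries had medians of 1.44 to 1.72 CPM and luminal TEB libraries of 1.6 to 2.03 CPM. In counts, these medians were 95 and 65 in basal duct but 5 to 7 in basal TEB, where 41 to 69 of the sites had no count in a given library. A single count was worth 0.402 to 0.549 CPM in basal TEB and 0.1 to 0.147 CPM in basal duct, so the TEB value of a single site is coarse. The sites together took 1.86% and 1.9% of all counts in basal duct, 0.49% to 0.588% in basal TEB and 0.298% to 0.407% in the luminal libraries.

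The next highest population was basal TEB at 1147 of the sites (73.2%), luminal TEB at 285 and luminal duct at 135. The median ratio of the basal duct to the basal TEB mean was 3.23, and 605 sites (38.6%) had a ratio under 3, near the limit of the rule. Against luminal duct and luminal TEB the median ratios were 6.24 and 4.92. For all peaks within 500 bp of a TSS the median ratio of basal duct to basal TEB was 1.33, and for all distal peaks it was 0.734. The basal duct mean was under 8 CPM at 629 sites and 20 CPM or more at 207. At 112 sites it was at least 5 times every other mean. Both basal duct libraries exceeded all 9 others at 1565 sites, a pattern seen in 11.8% of all peaks, which the rule nearly fixes. By the edgeR exact test 1556 of the sites were higher in basal duct than in basal TEB (background 9.73% of all peaks) and 1567 were higher than in luminal duct (background 31.8%); nothing is read from these counts, since the rule used both contrasts.

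The 2 basal duct libraries gave nearly the same level, with a median ratio of replicate 1 to replicate 3 of 0.999 and replicate 1 the higher at 781 sites. The choice of sites did depend on scaling. With CPM scaled to the counts in TSS peaks, 664 sites met the rule, and with TMM effective library sizes 2595 did. Leaving out any 1 of the 11 libraries gave 1506 to 1930 sites.

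**Figure D1:**
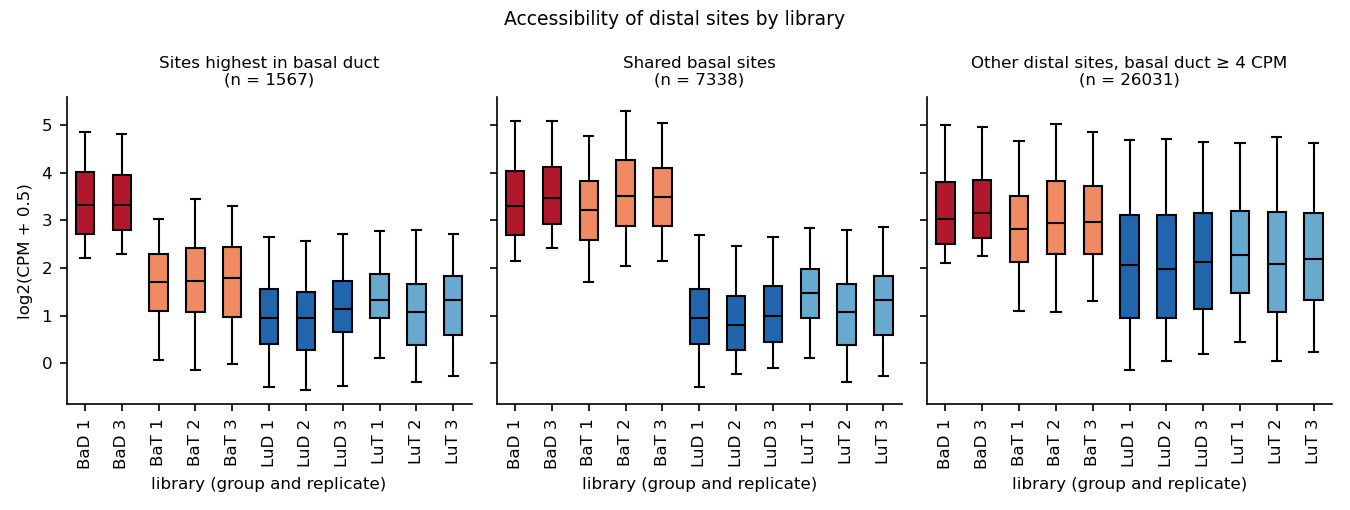
Accessibility on a log2(CPM + 0.5) scale in each of the 11 libraries (BaD basal duct, BaT basal TEB, LuD luminal duct, LuT luminal TEB), for the 1567 sites, the 7338 shared basal sites and the 26031 other distal sites with a basal duct mean of 4 CPM or more, which contain the shared ones. Boxes span the quartiles with the median as a line and whiskers reach the 5th and 95th percentiles; in the left panel, whose sites were chosen for high BaD levels, the BaT medians lie between those of BaD and the luminal libraries, and the BaT and luminal boxes overlap.

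Shared basal sites, used for comparison, were the 7338 distal peaks outside the set at which both basal means were 4 CPM or more and at least 2.5 times both luminal means. Their median was 10 CPM in basal duct and 9.94 in basal TEB, against 1.44 and 1.87 in luminal duct and luminal TEB. The luminal medians of the 2 sets lay close together, and the sets differed in basal TEB, as their definitions require.

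At the limits of the rule, the 2 sites with the lowest basal duct mean lay near Psg26 (4.0 CPM) and in an intron of Tgfbr3 (4.01 CPM), and the 2 nearest peaks below the limit lay near 1810046K07Rik (under 4.0 CPM before rounding) and Cog6 (3.99 CPM). The 2 sites with the smallest ratio, near Cercam and Lonrf1, had a basal duct mean 2.5 times the basal TEB mean, and to the digits printed the ratio was the same at the first peaks left out, near Cadm1 and Tle3. The 2 nearest sites to a TSS lay 10006 bp from Map2 and 10011 bp from Cstad, and the closest excluded peaks lay 9873 bp from Pcdhgc5 and 9846 bp from 5730409E04Rik. Library overlap by itself left out 9 peaks. Of these the narrowest misses were near Ube4a, where basal duct replicate 3 at 3.81 CPM lay under basal TEB replicate 1 at 3.84 CPM, and 247 kb from Pik3r1, with the same pair of values. Inside the limit by the least were an exon site of Ripor3, at 4.91 CPM against 4.9, and an intron site of Tspan18, at 3.96 against 3.92. In all, 600 peaks failed the level alone, 9088 the ratio alone and 507 the distance alone.

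The site with the highest level lay 20.4 kb from Synpo, which encodes the actin-binding protein synaptopodin. It measured 74.6 and 61.8 CPM in basal duct, 14.3, 31.3 and 25.5 CPM in basal TEB, 4.31, 2.52 and 2.8 CPM in luminal duct and 5.46, 5.35 and 6.08 CPM in luminal TEB. The basal TEB libraries lay between the duct and the luminal libraries with no overlap. The next site lay in an exon of Nfasc, 24 kb from Cntn2, both of which encode cell adhesion molecules of neurons (chr1:132566987-132568176). It measured 62.7 and 58.5 CPM in basal duct, 15.4, 33.7 and 19.1 CPM in basal TEB and 1.08 to 3.01 CPM in the 6 luminal libraries. A site 668 kb from Brinp1, a gene of the nervous system, had another pattern (chr4:69621952-69623205). It measured 55.6 and 56.5 CPM in basal duct but 7.14, 6.43 and 6.37 CPM in basal TEB and 4.05 to 12.8 CPM in the luminal libraries. There basal TEB overlapped luminal TEB (4.05 to 7.49 CPM), and luminal duct (7.53 to 12.8 CPM) lay just above both.

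The Enox1 site measured 60.2 and 50.9 CPM in basal duct, 9.33, 23.7 and 9.31 CPM in basal TEB and 1.03 to 2.7 CPM in the luminal libraries. The Ackr3 site measured 53.7 and 43.4 CPM in basal duct, 12.1, 26.5 and 19.6 CPM in basal TEB and 1.94 to 4.81 CPM in the luminal libraries. The Lep site measured 46.4 and 48.9 CPM in basal duct, 13.2, 15.3 and 26.5 CPM in basal TEB and 1.23 to 4.73 CPM in the luminal libraries. At 5 of these 6 strongest sites the basal TEB libraries lay above all luminal libraries, the Brinp1 site being the exception.

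The sites with the largest ratio of basal duct to the next population (0.5 CPM added to both) were weaker and showed no such graded basal pattern. Choosing by this ratio favours sites with a low basal TEB mean, so nothing is read from the missing grade. A site 412 kb from Tns1 (chr1:73516395-73516988) measured 12.4 and 12.9 CPM in basal duct and 0.0, 0.402 and 1.47 CPM in basal TEB. The 6 luminal libraries there ranged from 0.338 to 1.87 CPM and overlapped basal TEB. A site 22.8 kb from Dusp1, which encodes a phosphatase of MAP kinases, measured 23.4 and 23.3 CPM in basal duct, 1.1, 2.41 and 2.94 CPM in basal TEB and 1.03 to 4.31 CPM in the luminal libraries. A site 528 kb from Pappa, a protease of insulin-like growth factor binding proteins, measured 24.5 and 20.8 CPM against 1.96 to 3.21 CPM in basal TEB and 1.03 to 3.48 CPM in the luminal libraries. The sites near Ttc32 (18.7 and 15.4 CPM), near Nova1 (12.9 and 10.1 CPM), which encodes a neuronal splicing factor, and in an intron of Fhod3 (5.61 and 7.92 CPM), which encodes an actin-assembling formin, likewise had overlapping basal TEB and luminal libraries. The Fhod3 site had 1 count in all over the 3 basal TEB libraries, so its ratio of 37.0 to basal TEB rests on that count.

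**Figure D2:**
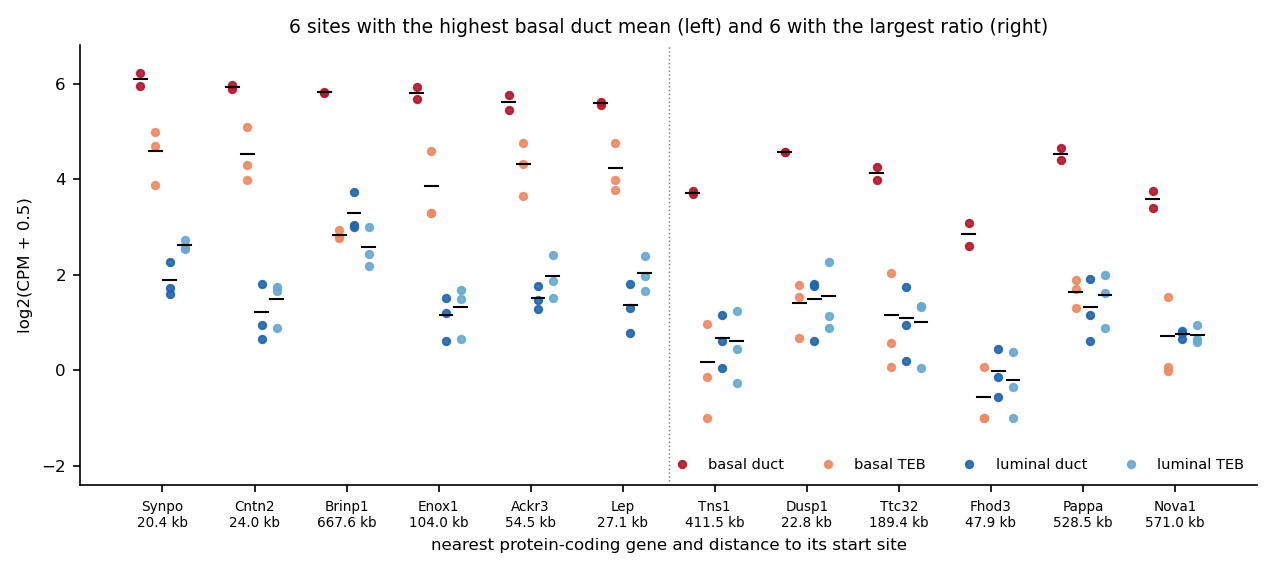
CPM on a log2(CPM + 0.5) scale in each library at the 6 sites with the highest basal duct mean (left of the dotted line) and the 6 with the largest ratio (right), named by nearest gene and distance; points are libraries and black lines group means. On the left the basal TEB points lie above the luminal points except at the Brinp1 site. On the right basal TEB and luminal points overlap, which the choice by ratio favours.

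Whether the sites still marked the basal lineage in TEBs was asked by comparing basal TEB with luminal TEB, a contrast that leaves out basal duct, although the rule capped both means. By the edgeR exact test (Benjamini-Hochberg FDR 0.05 over all 153396 peaks), 178 of 1567 sites (11.4%) were higher in basal TEB and 7 (0.447%) lower. The background was 16.6% of all peaks higher and 20.8% lower. Among the other distal sites with a basal duct mean of 4 CPM or more, 40.2% were higher and 12.3% lower. The median log2 fold change was 0.45 over the sites and -0.07 over all peaks. Every basal TEB library lay above every luminal TEB library at 333 sites (21.3%) and below at 27 (1.72%), against 21.8% and 25.9% of all peaks. Over all peaks tested, both shares were thus under the background; the part of the rule's cap and of the low TEB counts was not tested.

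The clearest of the 178 were the Cntn2 site, at 3.22 on the log2 scale (SE 0.44, adjusted p = 6e-14 by edgeR), the Ackr3 site at 2.41 (SE 0.43, adjusted p = 5e-09 by edgeR) and the Lep site at 2.27 (SE 0.34, adjusted p = 3.3e-08 by edgeR). Each was higher in all 3 basal TEB libraries than in any luminal TEB library. Over the 178 sites the median was 5.81 CPM in basal TEB and 17.2 CPM in basal duct, against 2.55 and 8.7 CPM at the 1382 sites with no call; the rule ties the basal duct level to the basal TEB level, so nothing is read from this. Their luminal TEB medians were 1.74 and 1.85 CPM.

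Among the 7 lower sites, a site 188 kb from Zfp637 (chr6:117652876-117653377) measured 0.0, 1.21 and 0.0 CPM in basal TEB and 3.73, 3.48 and 2.03 CPM in luminal TEB, against 10.8 and 12.0 CPM in basal duct. The log2 fold change there was -2.68 (SE 0.52, adjusted edgeR exact test p = 0.005). All 3 basal TEB counts were in replicate 2, without which the fitted value was -6.17 and depends on the prior count. A site 34.2 kb from Zfp36l2, which encodes an RNA-binding protein of mRNA decay, measured 43.9 CPM in both basal duct libraries, 4.39, 13.3 and 9.31 CPM in basal TEB, 13.8, 19.0 and 14.9 CPM in luminal TEB and 13.1 to 18 CPM in luminal duct. Its log2 fold change was -0.85 (SE 0.48; edgeR gave an adjusted p = 0.032). The call was lost without basal TEB replicate 1 or 3 (edgeR adjusted p = 0.18 and 0.077) and without luminal TEB replicate 2 or 3 (0.22 and 0.072), with log2 fold changes of -0.53, -0.83, -0.67 and -0.9. DESeq2 also lost the Zfp36l2 call (log2 fold change -0.9, DESeq2 adjusted p = 0.08). A site 23.3 kb from Gm11733 measured 1.1, 0.0 and 0.49 CPM in basal TEB and 2.01 to 2.7 CPM in luminal TEB, and the log2 fold change there was -2.21 (SE 0.38, adjusted edgeR exact test p = 0.035). The call was lost without basal TEB replicate 2 or 3 and without luminal TEB replicate 1, 2 or 3 (edgeR adjusted p 0.078 to 0.26), with log2 fold changes of -1.58 to -2.29. TSS-peak TMM factors (0.087) and leaving out TMM factors (0.065) also lost it.

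The count of 178 fell to 117, 84 and 115 without luminal TEB replicate 1, 2 and 3, respectively. Over all peaks the higher count fell too, from 25518 to 19121, 17012 and 19328. The edgeR quasi-likelihood test called 115 of the 423 sites that passed a filter on low counts, against 16925 of 71137 peaks, and the exact test after that filter 117, against 17245. By both of these tests the share among peaks past the filter was not under the background. With the replicate number as a block, 91 of the 423 sites were called, against 15894 of 71137 peaks, a share just under it. The comparison with the background therefore depends on the filter and on the test. The median over the sites was 2.8 CPM in basal TEB and 1.84 CPM in luminal TEB. The sites could thus pass the filter more readily through basal TEB, the group tested as higher. Nothing is read from the shares past the filter. DESeq2 called 88 of the 1567, against 16915 of 153396 peaks.

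**Figure D3:**
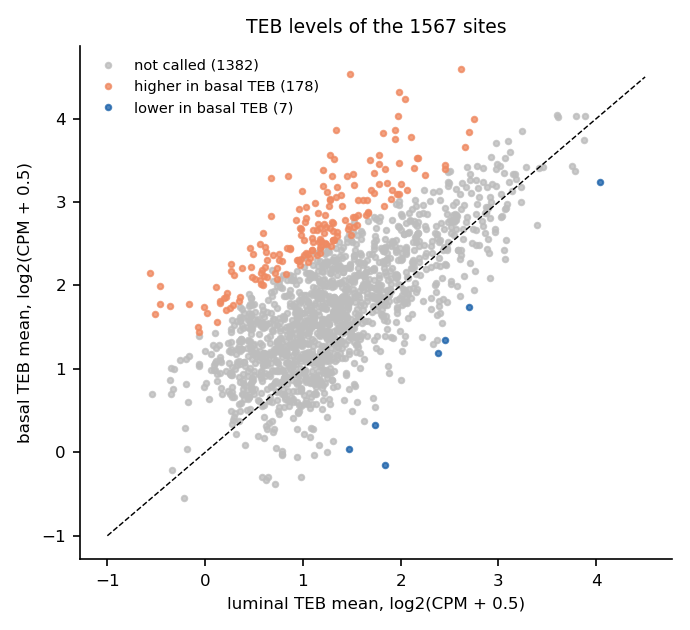
Mean basal TEB against mean luminal TEB level of each of the 1567 sites, both as log2(CPM + 0.5), with the dashed line at equality; colours mark the edgeR exact test calls. The 178 sites higher in basal TEB lie above the line and the 7 lower sites below it, with 1382 sites between or near them without a call.

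Between luminal TEB and luminal duct, 2 of the 1567 sites were higher in luminal TEB (0.128%; background 0.311% of all peaks) and 0 lower (background 0.455%) by the edgeR exact test. At an unadjusted p under 0.05, 88 sites were higher and 12 lower, against 8412 and 9248 of all 153394 peaks, and DESeq2 called 0 in either direction. The site with the smaller p of the 2 lay 180 kb from Map1b, which encodes a microtubule-associated protein (chr13:99696213-99697192). It measured 8.33, 5.62 and 6.42 CPM in luminal TEB and 2.67, 2.34 and 2.15 CPM in luminal duct, with a log2 fold change of 1.44 (SE 0.16) and an adjusted p of 0.015 by edgeR. Basal TEB there measured 5.39 to 8.23 CPM and overlapped luminal TEB. The Map1b call was lost without luminal duct replicate 2, luminal TEB replicate 1 or luminal TEB replicate 3 (adjusted p 0.05 to 0.18).

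The sites had no nearest gene in common: 1100 genes were nearest to at least 1 of them, 284 to 2 or more and 7 to 6 or more. Another site of the set lay within 50 kb of 536 of them (34.2%). Tns1, the gene of tensin 1, which links integrins to actin, was nearest to 12 sites, of 37 distal sites near it with a basal duct mean of 4 CPM or more. They spanned 590 kb of chromosome 1 and ranged from 4.02 to 31.7 CPM in basal duct. The strongest, in an intron 20.7 kb from a TSS, measured 33.9 and 29.5 CPM in basal duct, 5.49, 15.3 and 6.86 CPM in basal TEB and 4.32 to 10.1 CPM in the luminal libraries. Summed over the 12, group means came to 178 CPM in basal duct, 51.0 in basal TEB, 35.3 in luminal duct and 40.6 in luminal TEB. None of the 12 differed between basal TEB and luminal TEB by the test.

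Ksr1 was nearest to 11 sites, of 23 at that level, within 158 kb of chromosome 11, and 10 of them lay in its introns. The site shown above measured 45.8 and 36.5 CPM in basal duct, 9.88, 13.7 and 11.3 CPM in basal TEB, 3.87 to 5.74 CPM in luminal duct and 6.61 to 9.12 CPM in luminal TEB. Summed over the 11, group means came to 158, 40.1, 17.4 and 30.0 CPM. The summed level was therefore lowest in luminal duct, and none of the 11 was called between basal TEB and luminal TEB.

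Ptpn1, which encodes a tyrosine phosphatase that acts on the insulin and leptin receptors, was nearest to 7 sites of 34, all between genes, at 40.1 to 120 kb upstream. They summed to 130 CPM in basal duct and 42.5 in basal TEB. The strip upstream of Ptpn1 adjoins that of Cebpb, the gene of the transcription factor C/EBP beta, which was nearest to 5 further sites, and together the 12 lay between positions 167713492 and 167892211 of chromosome 2. Pik3r1 was nearest to 7 sites of 30, at 99.9 to 419 kb. Its strongest, whose sequence is shown, measured 36.4 and 35.9 CPM in basal duct, 10.4, 12.9 and 7.84 CPM in basal TEB, 2.58 to 5.54 CPM in luminal duct and 4.01 to 5.74 CPM in luminal TEB, and was higher in basal TEB than luminal TEB (log2 fold change 1.01, SE 0.25, edgeR adjusted p = 0.028).

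Zfp36l1, which encodes an RNA-binding protein of mRNA decay, was nearest to 7 sites of 32, of which 3 lay in introns of the neighbouring gene Rad51b. The strongest, between genes at 248 kb, measured 27.9 and 26.6 CPM in basal duct and 4.94 to 9.48 CPM over the other 9 libraries, where the 3 populations overlapped. Runx1, the gene of a transcription factor of the RUNX family, was nearest to 6 sites of 53. Its strongest, in an intron 74.5 kb from a TSS, measured 38.3 and 32.1 CPM in basal duct, 7.68, 16.1 and 5.88 CPM in basal TEB and 11 to 14.9 CPM in the 6 luminal libraries, and the median basal TEB library lay below all luminal ones. At Pik3r1, Zfp36l1 and Runx1, 2 sites each were higher in basal TEB than luminal TEB by the test, and none lower.

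**Figure D4:**
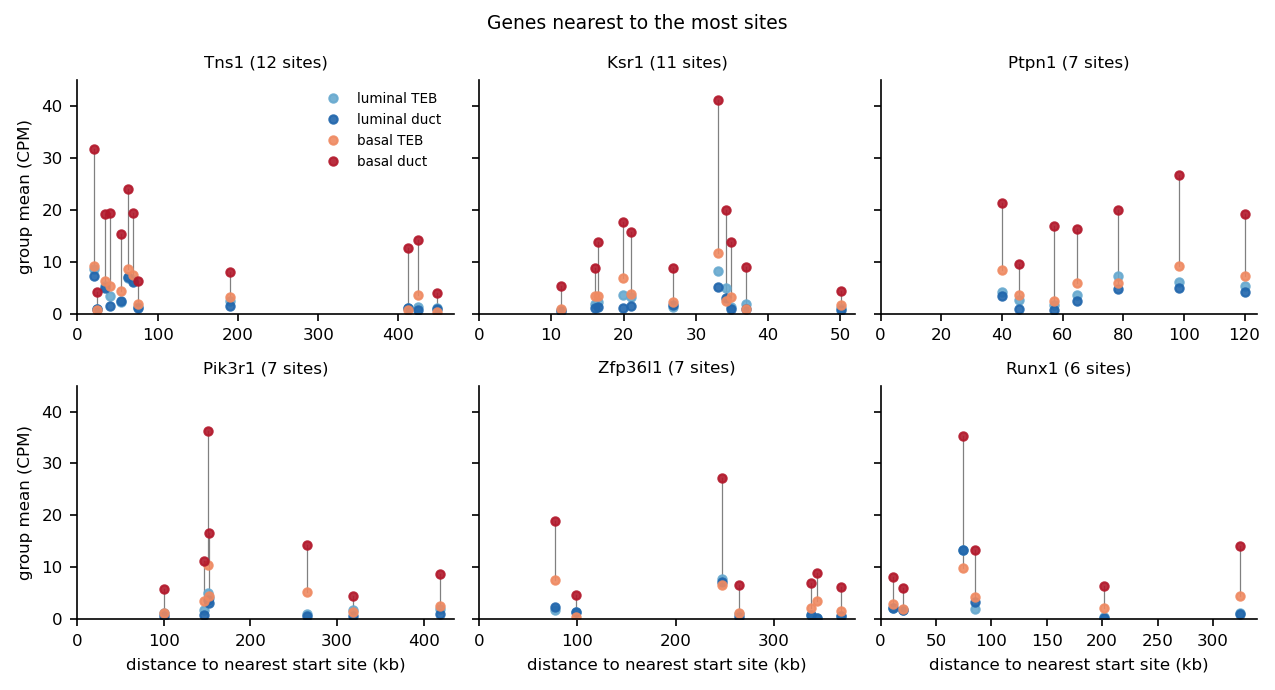
Group mean CPM (linear axis from 0) of the sites nearest to each of 6 genes with the most sites (Gas1, tied with Runx1 at 6 sites, had the lower summed level and is not drawn), against the distance from the nearest start site in kb; grey lines join basal TEB and basal duct. Basal duct means reach 41.1 CPM at Ksr1 and 36.2 CPM at Pik3r1, and basal TEB means lie near the luminal ones at Tns1.

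Sites were next grouped by lists of genes nearest to them. Of 13279 genes nearest to any distal peak, 8.28% were nearest to a site of the set, and of all distal sites with a basal duct mean of 4 CPM or more, 5.68% belonged to it. Both shares serve as the background here; genes with many distal peaks have more chances, so the share of sites is given first. The nearest gene is a label of position and need not be the gene a site acts on.

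Genes of the interstitial matrix, the collagens and proteases of connective tissue, had 28 sites, 18.2% of the 154 near them, at 12 of 30 genes (Adamts5, Col12a1, Col1a2, Col5a1, Col6a2, Eln, Fbln1, Mmp2, Postn, Thbs1, Timp3 and Tnc). Near Col6a2, a chain of collagen VI, all 4 distal sites at this level belonged to the set. The stronger (chr10:76642230-76643687) measured 42.3 and 39.5 CPM in basal duct, 7.68, 7.63 and 10.8 CPM in basal TEB and 1.01 to 3.66 CPM in the luminal libraries, and was higher in basal TEB than luminal TEB (log2 fold change 1.75, SE 0.4, edgeR adjusted p = 0.00043). The next, 10.2 kb from the TSS, measured 35.8 and 34.0 CPM in basal duct, 8.78, 13.3 and 8.33 CPM in basal TEB and 5.41 to 10.3 CPM in the luminal libraries. Near Col5a1, a chain of collagen V, 4 of 9 sites belonged to the set, the strongest at 22.1 and 22.6 CPM in basal duct against 3.29, 7.63 and 3.43 CPM in basal TEB.

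Basal identity genes had 24 sites, 14.6% of 164, at 10 of 19 genes. Of the 24, 10 were higher in basal TEB than luminal TEB with none lower. Higher were also 11.4% of the 1567 sites, 16.6% of all peaks and 40.2% of the other distal sites with a basal duct mean of 4 CPM or more. Of the 10, 3 lay near Cxcl14, and the list was chosen with earlier results known, so nothing is read from the count. Near Cxcl14, a chemokine gene, the strongest site (chr13:56330315-56331353) measured 47.8 and 40.2 CPM in basal duct, 11.5, 25.3 and 10.8 CPM in basal TEB and 1.72 to 4.73 CPM in the luminal libraries, and exceeded luminal TEB in basal TEB by 2.19 on the log2 scale (SE 0.47, adjusted p = 1.1e-06 by edgeR). A site 66.8 kb upstream of Itga6, the alpha 6 integrin of hemidesmosomes, measured 29.9 and 25.4 CPM in basal duct, 9.33, 9.64 and 3.92 CPM in basal TEB and 0.899 to 3.73 CPM in the luminal libraries. Bcl11b, Dll1, Egfr, Itgb4, Jag1, Meox1, Nrg1 and Trp63 were the other genes of this list.

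Contractile genes had 11 sites (9.17% of 120) at 6 genes. A site in an intron of Actn1, the gene of alpha-actinin 1, measured 27.4 and 31.4 CPM in basal duct, 3.29, 9.64 and 11.3 CPM in basal TEB and 3.66 to 8.0 CPM in the luminal libraries. A site 97.6 kb from Oxtr, the oxytocin receptor, measured 24.1 and 19.5 CPM in basal duct, 4.94, 4.82 and 4.41 CPM in basal TEB and 1.44 to 4.31 CPM in the luminal libraries. Genes of the basement membrane and integrins had 7 sites (5.19% of 135), near the overall share, among them an exon site of Hspg2, the gene of perlecan, at 27.9 and 28.8 CPM against 3.84, 11.6 and 15.2 CPM in basal TEB.

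Among signalling genes, growth factors and their receptors had 12 sites (8.57% of 140), the TGF-beta and BMP pathway 19 (7.17% of 265), TEAD and YAP genes 7 (7.07% of 99), axon guidance genes 15 (7.01% of 214), the Wnt pathway 14 (6.14% of 228) and the Notch pathway 7 (5.6% of 125). These shares lay between 5.6% and 8.57%, against 5.68% overall. A Smad3 intron site (a signal transducer of TGF-beta) measured 38.1 and 33.3 CPM in basal duct, 12.6, 8.03 and 10.3 CPM in basal TEB and 9.46 to 15.5 CPM in the luminal libraries, so that basal TEB and luminal cells overlapped. A Wnt5b intron site, in the gene of a secreted Wnt ligand, measured 25.6 and 27.7 CPM in basal duct, 5.49, 4.82 and 2.45 CPM in basal TEB and 3.16 to 6.45 CPM in the luminal libraries, and basal TEB and luminal libraries overlapped there too. A site 15.1 kb from Wnt10a, another Wnt ligand, measured 25.9 and 28.9 CPM in basal duct and 8.78, 11.6 and 9.8 CPM in basal TEB, all above the luminal libraries at 2.87 to 5.07 CPM. The 2 strongest Notch pathway sites lay 538 and 478 kb from Jag1, a Notch ligand, at 20.6 and 16.0 and at 16.1 and 15.7 CPM in basal duct.

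Further sites of these lists were a site 118 kb from Tgfb2, a TGF-beta ligand, at 25.4 and 29.2 CPM in basal duct against 8.33 to 12.1 CPM in basal TEB, and an intron site of Fgf2, a fibroblast growth factor, at 24.3 and 21.3 against 5.49 to 7.84 CPM. Intron sites of Lats2, a Hippo pathway kinase that restrains YAP, and of Wwtr1, which encodes TAZ, measured 20.3 and 15.7 CPM and 16.5 and 15.0 CPM in basal duct. At Lats2 the luminal TEB libraries, at 5.35 to 8.11 CPM, were the next highest population, ahead of basal TEB at 2.81 to 5.88 CPM. Transcription factors of basal and muscle cells had 24 sites (6.03% of 398) at 13 genes, among them a site 248 kb from Sox4 at 32.1 and 30.1 CPM in basal duct and 7.84 to 10.4 CPM in basal TEB.

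Of the luminal lists, pan-luminal genes had 1 site (1.49% of 67), at 5.26% of 19 genes, and luminal progenitor genes 1 (1.43% of 70), at 9.09% of 11 genes. Mature luminal genes had 3 (5.56% of 54), close to the overall share of sites, at 15% of 20 genes. The pan-luminal site lay 44.2 kb from Ehf, an epithelial ETS factor, and measured 21.2 and 20.5 CPM in basal duct, 2.74, 4.82 and 1.47 CPM in basal TEB and 3.38 to 5.17 CPM in the luminal libraries. Cell cycle genes had 1 site (3.33% of 30), in an exon of Mki67.

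Lists of other cell types were counted in the same way. Fibroblast genes had 7 sites (16.7% of 42), at Col1a2, Col5a1 and Dcn, endothelial genes 4 (8.51% of 47), at Cdh5, Pecam1 and Tek, adipocyte genes 1 (at Lep), immune genes 1 (at Ptprc), pericyte and vascular smooth muscle genes 1 (at Steap4) and Schwann and nerve genes 0. A site 187 kb from Cdh5, the gene of the endothelial cadherin, measured 25.4 and 28.2 CPM in basal duct, 7.63 to 9.8 CPM in basal TEB and 1.35 to 4.52 CPM in the luminal libraries. Of 18 fibroblast genes, 9 had a promoter peak, and these summed to 171 to 174 CPM in basal duct, 97.7 to 116 in basal TEB and 47.6 to 53.4 in the luminal libraries. Col1a1, Col3a1, Lum, Dpt, Pi16, Mfap5, Prrx1, Fap and Ly6c1 had none. Of 14 endothelial genes, 6 had one, summing to 61.1 to 64.6, 37.0 to 53.2 and 17.6 to 33.3 CPM, while Pecam1, Cdh5, Tek, Tie1, Vwf, Emcn, Esam and Plvap had none. The 9 of 12 pericyte and vascular smooth muscle genes with a promoter peak summed to 120 to 133 CPM in basal duct, 56.6 to 69.7 in basal TEB and 65.2 to 84.8 in the luminal libraries. Those of 5 of 14 immune genes summed to 57.6 to 65.3, 25.8 to 43.6 and 40.7 to 50.3 CPM. Those of 6 of 11 Schwann and nerve genes summed to 112 to 117, 77.4 to 100 and 87.5 to 105 CPM, and those of 4 of 9 adipocyte genes to 84.6 to 84.7, 57.1 to 76.7 and 62.1 to 76.6 CPM. No gene with a promoter peak was at 0 in both basal duct libraries. For basal duct against basal TEB, the median log2 fold change was 0.65 over promoter peaks of all genes. It was 0.52 (endothelial) to 0.93 (pericyte and vascular smooth muscle) over those of these lists. The part of other cells in the sites was not tested.

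Promoters were not used to choose the sites. Of the 1100 nearest genes, 971 had a peak within 500 bp of a TSS, and by the edgeR exact test 467 of the 971 (48.1%) were higher in basal duct than in basal TEB and 1 lower. The background over 13740 promoter peaks of all genes was 34.9% higher and 0.604% lower, and over genes nearest to any distal site with a basal duct mean of 4 CPM or more it was 41.4% higher. The median log2 fold change was 0.8 at the nearest genes and 0.65 over all promoters. The counts of this contrast hung on scaling and on single libraries. With TMM factors taken from TSS peaks, which moved the median of all peaks from -0.02 to -0.67, 70 (7.21%) were higher and 21 (2.16%) lower. The shares were 3.52% and 4.69% of all promoters, and 4.9% and 3.49% at genes nearest to any such distal site. Without basal TEB replicate 3, 303 (31.2%) were higher, against 20.7% of all promoters and 26.0% at genes nearest to any such distal site. The median log2 fold change was 0.66 without basal duct replicate 1 and 0.92 without replicate 3, against 0.53 and 0.76 over all promoters.

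Against luminal duct, 537 of the 971 promoters (55.3%) were higher in basal duct and 78 (8.03%) lower, with a background over all promoters of 43.7% higher and 11.3% lower. Over genes nearest to any distal site with a basal duct mean of 4 CPM or more it was 47.3% higher and 9.92% lower. With TSS-peak scaling the counts were 396 (40.8%) higher and 221 (22.8%) lower, against 26.7% and 28.5% of all promoters and 31.1% and 26.9% at the genes nearest to any such distal site. The 78 lower promoters came to 33, 50 and 44 without basal duct replicate 3, luminal duct replicate 1 and luminal duct replicate 2, respectively.

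At single genes, the Tns1 promoter peak measured 20.6 and 16.1 CPM in basal duct, 6.04, 8.44 and 7.84 CPM in basal TEB and 5.93 to 9.46 CPM in the luminal libraries, and was higher in basal duct than in basal TEB (log2 fold change 1.52, SE 0.29, edgeR adjusted p = 0.00033). That of Ksr1 was also higher (1.11, SE 0.27, edgeR adjusted p = 0.0043), at 30.7 and 27.6 CPM against 12.5 to 21.4 CPM. The Zfp36l1 promoter measured 30.8 and 22.3 CPM in basal duct and 34.0, 22.9 and 18.1 CPM in basal TEB, with overlap and no call (log2 fold change 0.33, SE 0.41, edgeR adjusted p = 0.55). The Ehf promoter measured 1.6 and 1.47 CPM in basal duct and 10.8 to 17.8 CPM in the luminal libraries, and was lower in basal duct than in luminal duct (log2 fold change -3.15, SE 0.23, edgeR adjusted p = 9.9e-23), whereas the distal site nearest to Ehf was chosen for its high level in basal duct. The Col6a2 promoter measured 10.3 and 8.8 CPM in basal duct, 2.74, 2.01 and 4.41 CPM in basal TEB and up to 4.31 CPM in the luminal libraries, with log2 fold changes of 1.89 (SE 0.31) against basal TEB and 2.21 (SE 0.22) against luminal duct (edgeR adjusted p = 0.00053 and 4.8e-12). The Cxcl14 promoter measured 52.1 and 45 CPM in basal duct, 14.3, 21.3 and 25 CPM in basal TEB and 2.7 to 6.03 CPM in the luminal libraries, a graded order like that of its distal site.

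In position, 857 of the sites (54.7%) lay between protein-coding genes, 627 (40%) in introns and 83 (5.3%) in exons. Here and above, places refer to protein-coding genes alone, so a site between genes can lie in a non-coding gene. With the TSSs of all annotated genes in the rule, 1214 sites met it. The median distance to a TSS was 58.0 kb, against 43.4 kb for the other distal sites with a basal duct mean of 4 CPM or more and 49.5 kb for all distal peaks, and 33.1% lay over 100 kb away, against 23.3% and 29.1%. The median width was 636 bp, against 664 and 322 bp, and the median GC content 48.0%, against 49.6% and 47.9%. Peaks over 50% repeat-masked made up 0.957% of the sites, 1.56% of the other distal sites with a basal duct mean of 4 CPM or more and 0.695% of shared basal sites. They made up 10.6% of all distal peaks, so the low share is not particular to the set. The X chromosome held 11 sites, 0.394% of its 2793 distal peaks and 3.17% of those with a basal duct mean of 4 CPM or more. Autosomes ranged from 1.19% to 1.94% and from 4.2% to 7.37%.

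In all, 27 motifs were searched on both strands of the central 300 bp, and their shares are descriptions with no test. Most were exact letters, with N for any base. Those of NFI, CTCF and the p63/p53 half-site, given here without letters, were patterns not limited to such letters. TEAD matches were in 34.7% of the sites, against 28.8% of shared basal sites, 25.9% of the other distal sites with a basal duct mean of 4 CPM or more and 22.6% of all distal peaks. RUNX matches were in 12.4%, against 8.26%, 8.37% and 8.65%. AP-1 matches were in 30.1%, above the 20.7% of shared basal sites but nearer to the 26.8% and 28.6% of the wider sets. At least 1 of the 3 was in 61.0% of the sites, against 48.5%, 50.3% and 49.6%, and TEAD with AP-1 in 10%, against 5.61%, 6.8% and 6.23%. Matches of different motifs overlapped in 6 sites.

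The C/EBP motif (TTGCNNAA) was in 18.1% of the sites and 14.8% of the other distal sites at that level, and the STAT motif (TTCCNGGAA, whose matches can overlap those of TEAD or ETS) in 2.68% and 1.72%. Motifs less frequent among the sites included those of ETS (CAGGAAG), in 12.3% against 15.7%, and of GRHL (AACCNGTT), epithelial factors, in 1.34% against 2.89%. Those of NFI were in 0.893% against 1.98%, and those of CTCF, the factor of chromatin loop anchors, in 0.128% against 1.85%. The p63/p53 half-site, bound by the basal regulator p63, was in 12.4% of the sites, 13.8% of the other distal sites and 17.8% of shared basal sites. All distal peaks held these 7 motifs in the order named at 14.9%, 1.49%, 14.1%, 3.42%, 1.57%, 2.12% and 12.3%. Further motifs differed by a like ratio between the sites and the other distal sites: GATA, in 15.4% against 12.8%, KLF, in 10.6% against 13.3%, TFAP2, in 11.4% against 14.2%, and CREB, in 0.511% against 0.722%.

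Of 655 TEAD matches in the sites, 40.8% lay within 50 bp of the peak centre, against 36.1% in the other distal sites at that level and 39.1% in all distal peaks. Within the set, the 178 sites higher in basal TEB than luminal TEB held TEAD matches in 39.9%, RUNX in 14.6% and AP-1 in 30.9%. The 1382 sites with no call held them in 34.1%, 12.0% and 29.9%, and the difference between these subsets was not tested.

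**Figure D5:**
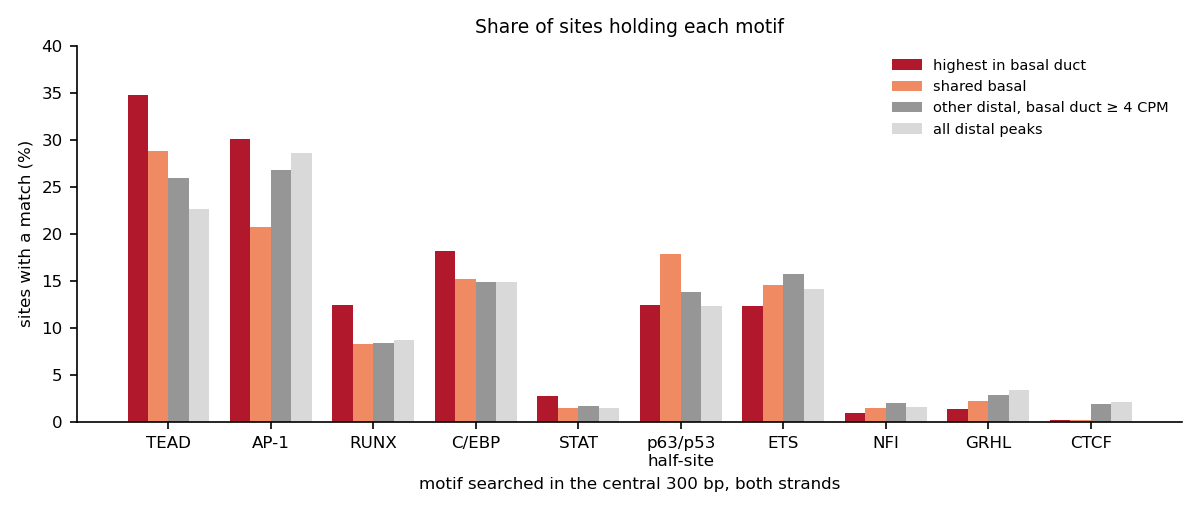
Share of sites (%) with at least 1 match of each motif in the central 300 bp on either strand, for the 1567 sites, shared basal sites, other distal sites with a basal duct mean of 4 CPM or more (which contain the shared ones) and all distal peaks (which contain every set). TEAD and RUNX bars are tallest for the sites highest in basal duct, and the p63/p53 half-site bar is tallest for shared basal sites.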

How the data were processed

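Accessibility was measured by ATAC-seq in 11 libraries of sorted basal and luminal mammary cells. The authors trimmed and mapped reads to mm10 (Bowtie2 2.3.4.3 in the labels) and dropped duplicate reads. Peaks came from MACS2, run by the authors on the pooled replicates of each population, and were merged, with blacklisted regions taken out. Raw read counts were deposited for each merged peak and library, counted by the authors in SeqMonk. Any offset of reads for Tn5 was not given in the sources used here. Starts were read as 0-based, since the files do not state it, and are printed 1-based.

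Peaks were annotated against GRCm38 with GENCODE vM21 basic (41421 TSSs of protein-coding transcripts), by the nearest peak edge. CPM were counts per 1000000 of each library's column total. Pairs of groups were tested with the edgeR 4.0.16 classic exact test (R 4.3.3, TMM factors), as in the study, with Benjamini-Hochberg FDR 0.05 over every peak that had counts in either group. SEs were between libraries, on log2 CPM after adding a prior count (2). The test was tested on simulated data. A promoter peak was the peak within 500 bp of a TSS of the gene with the highest mean log2 CPM.

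Named sites were the 6 with the highest basal duct mean, the 6 with the largest ratio, up to 2 per gene list, those of the 6 genes nearest to the most sites, up to 3 per direction of each test, and those at the limits of the rule. Members, gene lists and motifs were chosen with earlier results of these data known. Alternatives were other scalings, tests (edgeR quasi-likelihood, DESeq2 1.42.0), filters, rule limits, a replicate block and leaving out each library. Precision is limited by depth, from 1821942 to 9986384 counts. Where a basal duct library was left out, the remaining one was assumed to vary like the other group. Replicates are pools of mice, and p-values set the difference between groups against the spread between libraries, as estimated by each test. The exact test took the groups as independent, and whether they share pools is not given in the labels. A further site called between luminal TEB and luminal duct is not reported here.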

Additional observations from a re-analysis of the deposited data

How the results depend on the processing

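The number of sites that met the rule was 2595 with TMM effective library sizes, 664 with TSS-peak totals, 3094 and 826 at folds of 2 and 3, and 938 at a minimum of 8 CPM, and it stayed within 1.5 times of 1567 under the other limits and scalings tried (1506 to 1930 without 1 library). Between basal TEB and luminal TEB, the counts of sites higher and lower were 178 and 7. The higher count was 115 by the quasi-likelihood test, 117 with filterByExpr, 88 with DESeq2 and 84 to 229 without 1 library. The lower count was 3 with TSS-peak TMM and with no TMM factors, 1 with DESeq2 and 1 to 8 without 1 library. Between luminal TEB and luminal duct, the counts of 2 and 0 became 5 and 0 with TSS-peak TMM and 0 and 0 with DESeq2, and 1 site was lower by the quasi-likelihood test and with filterByExpr; without 1 library 0 to 5 were higher and 0 lower. For promoters of the nearest genes, basal duct against basal TEB, the counts of 467 higher and 1 lower became 70 and 21 with TSS-peak TMM. DESeq2 gave 288 higher, the quasi-likelihood test 3 lower and no TMM factors 4 lower, and without 1 library 25 to 583 were higher and 0 to 4 lower. Against luminal duct, the 78 lower became 221 with TSS-peak TMM, 48 with DESeq2 and 33 to 78 without 1 library, and the 537 higher stayed between 396 and 570. The cause of these shifts was not tested.

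Deviations of each library from its group mean were correlated between groups. For libraries that share a replicate number these correlations were -0.035 to 0.088 over 90480 peaks. Between luminal duct and luminal TEB they were 0.041 to 0.088, against -0.061 to 0.004 for libraries with different numbers. Deviations within a group cancel, so values for the same and for different numbers tend to opposite signs by construction. For luminal TEB against luminal duct the quasi-likelihood test called 512 of all peaks higher and 849 lower, and 1124 and 2096 with the replicate number as a block. Whether same-numbered libraries share a pool cannot be told from these values. With the replicate number as a block, 91 sites were higher and 2 lower in basal TEB than luminal TEB, and 5 were higher and 4 lower in luminal TEB than luminal duct. The block gave 591 and 3 promoters against basal TEB and 570 and 58 against luminal duct.

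Depth limits single sites in basal TEB, where the median count per site was 5 to 7 and 423 of 1567 sites passed the filter on low counts for the TEB pair.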
